A study of Sorghum bicolor with 16 samples.

Results

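Globulin-1 (Sobic.001G144900) and globulin-2 (Sobic.001G059800) are the 2 globulin storage protein genes that the study names by ID, and they are 2 of the 34129 genes in the deposited expression table. They were taken by these IDs, and each has a value in all 16 libraries. By their IDs both lie on sorghum chromosome 1. Each library was made from dissected endosperm of seeds aged 6, 11, 16 or 21 days after flowering (days post anthesis, DPA). WT was BTx623, the sorghum reference line, and wxe was the mutant line 15M2-1184, which was induced in BTx623 with ethyl methane sulfonate (EMS) and is homozygous for a stop-gained allele of the amylose synthase gene GBSSI. The wxe line also carries other EMS mutations, so a difference from WT here belongs to the line. The lines were grown in adjacent field rows with no treatment applied to either. Each genotype had 2 replicates at each age, each pooled from the middles of 3 panicles with 1 flowering date. P-values therefore measure the spread between such pools.

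Cereal grains store protein in separate classes. Prolamins, called kafirins in sorghum, are alcohol-soluble and fill the protein bodies of the starchy endosperm, while globulins are salt-soluble and are deposited in protein storage vacuoles. In maize, the proteins called globulin-1 and globulin-2 are vicilin-like and are best known as abundant proteins of the embryo, where they serve as a nitrogen reserve for the seedling. The labels call the sorghum tissue endosperm. The kafirin gene Sobic.009G001600 was abundant in it, at 3455 ± 553 FPKM in WT at 6 DPA and 84010 ± 7346 FPKM in WT at 21 DPA (SD, n = 2). In wxe at 6 DPA it had 457 ± 56.4 FPKM. The kafirin genes Sobic.010G136100 (91.3 FPKM in WT and 0.656 FPKM in wxe) and Sobic.005G186300 (0.187 and 1.16 FPKM) were scarcer at 6 DPA. Marker genes of embryo and aleurone were not analysed here, because the gene IDs came without product names. In such bulk tissue a smaller share of cells that express a gene and less of its RNA per cell cannot be told apart.

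Transcript levels are FPKM, fragment counts divided by transcript length and by the mapped fragments of the library, and can be compared between genes. The sum of FPKM per library lay between 493357 and 550572 at 6 DPA and between 779091 and 1001504 at the later ages. The table holds no read counts, so sequencing depth is unknown and counting errors cannot be given. The genotype labels were checked on GBSSI (Sobic.010G022600), whose wxe libraries lay below both WT libraries at all 4 ages.

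Both globulin transcripts were scarce at 6 DPA and among the more abundant transcripts of the seed at 21 DPA. In WT the mean of globulin-1 went from 0.253 FPKM at 6 DPA to 73.2 FPKM at 21 DPA, a ratio of 289, and the mean of globulin-2 from 1.43 to 193 FPKM, a ratio of 135. In wxe the same ratios were 32.3 for globulin-1 and 91.6 for globulin-2. The ratios of globulin-1 rest on low values at 6 DPA, 0.236 and 0.270 FPKM in WT and 4.34 and 0.865 FPKM in wxe. At 21 DPA its mean in wxe was 84.1 FPKM, with libraries that overlapped those of WT. At no age did the 2 genes show a difference between wxe and WT that passed the test, while the wxe effect on both genes changed between 6 and 11 DPA, as it did for 41.6% of all genes tested. Both of these calls were lost without the filter on low values (limma adjusted p = 0.144 for globulin-1 and 0.0810 for globulin-2). The replicates of several groups lay far apart, so the values are given library by library.

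**Figure D1:**
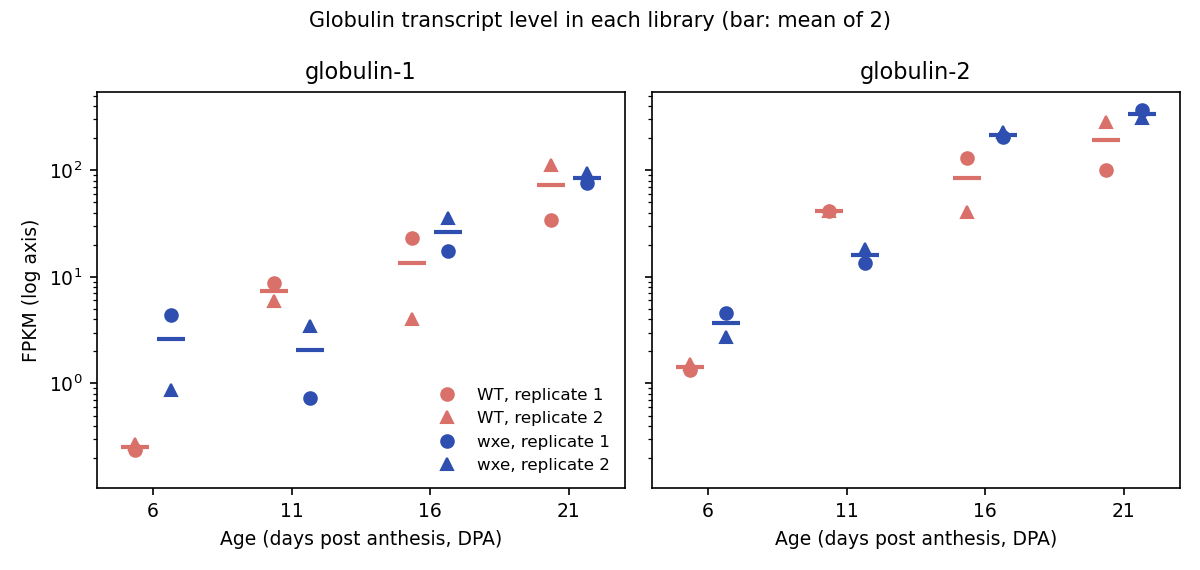
FPKM of globulin-1 (left) and globulin-2 (right) on a log axis against age in DPA. Each point is 1 library (circle replicate 1, triangle replicate 2, red WT, blue wxe) and each bar the mean of 2 libraries. The WT libraries of globulin-2 lie almost on each other at 11 DPA (41.2 and 41.8 FPKM) and far apart at 16 DPA (130 and 40.3 FPKM) and 21 DPA (101 and 285 FPKM).

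Globulin-1 was scarce in WT at 6 DPA, with 0.236 FPKM in replicate 1 and 0.270 FPKM in replicate 2. The wxe libraries of that age held 4.34 and 0.865 FPKM. Both wxe libraries thus lay above both WT libraries, but they differed from each other by a factor of 5.02. For 2 libraries against 2, such separation has an exact two-sided permutation p of 0.333. The share of all genes that show it was not counted for any comparison of groups.

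At 11 DPA the order of the genotypes was the opposite. WT held 8.77 and 5.96 FPKM of globulin-1 and wxe held 0.729 and 3.43 FPKM, again without overlap.

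At 16 DPA the WT libraries held 23.1 and 4.0 FPKM of globulin-1, and the wxe libraries 17.4 and 35.4 FPKM. WT replicate 2 was the low library there, and WT replicate 1 lay within the wxe range. At 21 DPA the values were 34.1 and 112 FPKM in WT and 75.0 and 93.2 FPKM in wxe. Here WT replicate 1 was the low library, WT replicate 2 was the highest of all 16, and both wxe libraries lay between them.

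Globulin-2 was the more abundant of the pair. At 6 DPA it had 1.35 and 1.51 FPKM in WT and 4.62 and 2.74 FPKM in wxe. At 11 DPA it had 41.2 and 41.8 FPKM in WT and 13.4 and 18.4 FPKM in wxe. The groups did not overlap at either age, with wxe above WT at 6 DPA and below it at 11 DPA. As for globulin-1, the share of all genes without overlap was not counted.

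At 16 DPA the WT libraries held 130 and 40.3 FPKM of globulin-2, and the wxe libraries 203 and 226 FPKM. At 21 DPA WT held 101 and 285 FPKM and wxe 367 and 308 FPKM. Both wxe libraries lay above both WT libraries at these 2 ages as well, and the spread was in WT, where the same libraries were low as for globulin-1.

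Ranked among the 34129 genes of its own library, globulin-1 was placed between 57.3% and 58.3% from the top in WT at 6 DPA and between 1.99% and 7.03% in WT at 21 DPA. Globulin-2 was placed between 41.9% and 43.4% from the top in WT at 6 DPA. In wxe at 21 DPA it stood at places 163 and 231, or 0.478% and 0.677% from the top. Even there its mean of 337 ± 41.8 FPKM was small beside the 90653 ± 6206 FPKM of the kafirin gene Sobic.009G001600 in the same group (SD, n = 2).

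Globulin-2 exceeded globulin-1 in 16 of 16 libraries. The ratio of globulin-2 to globulin-1, both in FPKM, had a median of 5.47 and ran from 1.06 in wxe replicate 1 at 6 DPA to 18.3 in wxe replicate 1 at 11 DPA. Both extremes fall on single libraries. The other libraries of these groups had ratios of 3.16 and 5.36. The 2 WT libraries of 21 DPA, which differed several fold in level, had like ratios of 2.96 and 2.54.

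**Figure D2:**
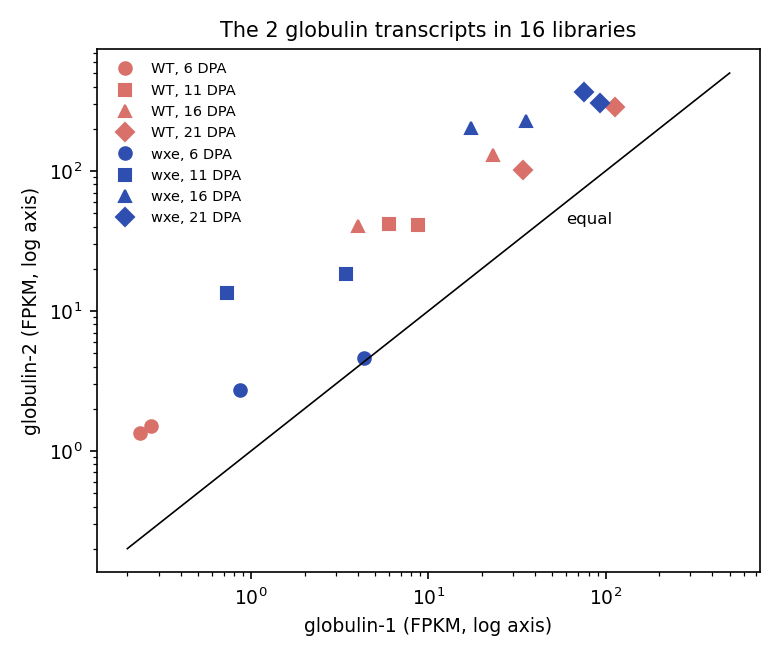
Globulin-2 against globulin-1, both in FPKM on log axes, in the 16 libraries (colour genotype, symbol age). The line marks equal levels, and all 16 points lie above it. The point nearest to the line is wxe replicate 1 at 6 DPA, with a ratio of 1.06.

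Placed in order of their mean FPKM, the 8 groups of globulin-1 ran from wxe at 21 DPA (84.1 ± 12.8 FPKM, SD, n = 2) through WT at 21 DPA, wxe at 16 DPA, WT at 16 DPA, WT at 11 DPA, wxe at 6 DPA and wxe at 11 DPA to WT at 6 DPA (0.253 ± 0.0241 FPKM, SD, n = 2). Of the 7 pairs of neighbours in this order, 5 overlapped in their libraries. The pairs that did not overlap were WT at 11 DPA above wxe at 6 DPA, and wxe at 11 DPA above WT at 6 DPA. The order of globulin-2 began with wxe at 21 DPA and wxe at 16 DPA (214 ± 16.5 FPKM), followed by WT at 21, 16 and 11 DPA, and then wxe at 11 DPA, wxe at 6 DPA and WT at 6 DPA (1.43 ± 0.112 FPKM; SD, n = 2 each). In that order 3 of 7 pairs of neighbours overlapped, and all 3 involved WT at 21 or 16 DPA.

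The genotypes were compared at each age on log2(FPKM + 1) with limma, in 1 model of the 8 groups, so that all groups share an estimate of the spread. The Benjamini-Hochberg adjustment of p-values ran across every gene whose mean passed 1 FPKM in a compared group. Calls needed an adjusted p under 0.05 together with a log2 fold change of 0.58 or more in either direction. Fold changes on this scale understate the change of low genes. The smallest two-sided p of an exact permutation test with 2 libraries a group is 0.333, and calls therefore rest on the shared spread. The study named these 2 genes on these same libraries, so the directions below are not independent evidence.

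Of the 2 globulin genes, 0 were called at any age. The share of all tested genes called in either direction was 19.6%, 17.9%, 0.987% and 6.51% in order of age. At an unadjusted p below 0.05 limma gave globulin-2 lower in wxe at 11 DPA and higher at 16 DPA, and globulin-1 at no age. The share of all genes below that unadjusted p was not counted, so these 2 values are not calls.

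At 6 DPA the mean of globulin-1 was 2.60 ± 2.46 FPKM in wxe and 0.253 ± 0.0241 FPKM in WT (SD, n = 2), a ratio of 10.3. The log2 fold change was 1.33 (standard error, SE, 0.75, limma adjusted p = 0.190), with a 95% interval from -0.30 to 2.96. Globulin-1 passed the filter at this age through its wxe libraries alone. Without wxe replicate 1 its mean there was below 1 FPKM and it was not tested.

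Globulin-2 at 6 DPA had 3.68 ± 1.33 FPKM in wxe and 1.43 ± 0.112 FPKM in WT (SD, n = 2), a ratio of 2.58. Its log2 fold change was 0.92 (SE 0.49, limma adjusted p = 0.166), and the 95% interval ran from -0.14 to 1.98.

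At 11 DPA both genes had lower values in wxe. The mean of globulin-1 was 2.08 ± 1.91 FPKM in wxe and 7.36 ± 1.98 FPKM in WT (SD, n = 2), so WT held 3.54 times as much. The log2 fold change was -1.57 (SE 0.75, limma adjusted p = 0.125). Globulin-2 had 15.9 ± 3.57 FPKM in wxe and 41.5 ± 0.421 FPKM in WT (SD, n = 2), with 2.61 times as much in WT. Its log2 fold change was -1.35 (SE 0.49, limma adjusted p = 0.0517), just short of a call. With the 11 DPA libraries fitted alone, both genes were called lower in wxe (adjusted p = 0.0177 for globulin-1 and 8.15e-04 for globulin-2, limma). The spread in that fit was drawn toward that of all genes in it, with an SE of 0.38 for globulin-1 against 0.75 in the main fit. These calls therefore do not rest on the 11 DPA replicates of the globulins alone. The share of all genes called in that fit is not given here. Globulin-2 was also called without either WT library of 16 DPA or of 21 DPA (adjusted p between 0.0173 and 0.0252 from limma) and with the filter at 5 FPKM (0.0449).

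At 16 DPA globulin-2 had 214 ± 16.5 FPKM in wxe and 85.1 ± 63.4 FPKM in WT (SD, n = 2), a ratio of 2.52. The log2 fold change was 1.55 (SE 0.49, limma adjusted p = 0.142), with a 95% interval from 0.49 to 2.61. Of the 14990 genes tested at 16 DPA, 0.153% had a log2 fold change as high or higher. Leaving out WT replicate 1, the higher of the WT libraries, gave 2.38 and a call (adjusted p = 0.0483 from limma). Leaving out WT replicate 2 gave 0.72. Array weights also gave a call (limma adjusted p = 0.0444).

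Globulin-1 at 16 DPA had 26.4 ± 12.7 FPKM in wxe and 13.6 ± 13.5 FPKM in WT (SD, n = 2), with overlapping libraries and a log2 fold change of 1.24 (SE 0.75, limma adjusted p = 0.468). The value ran from 0.10 without WT replicate 2 to 2.37 without WT replicate 1.

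At 21 DPA globulin-2 had 337 ± 41.8 FPKM in wxe and 193 ± 131 FPKM in WT (SD, n = 2), a ratio of 1.75 and a log2 fold change of 0.98 (SE 0.49, limma adjusted p = 0.220). Globulin-1 had 84.1 ± 12.8 FPKM in wxe and 73.2 ± 55.3 FPKM in WT (SD, n = 2), a log2 fold change of 0.42 (SE 0.75, limma adjusted p = 0.767). Without WT replicate 1 the value of globulin-1 turned to -0.42.

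**Figure D3:**
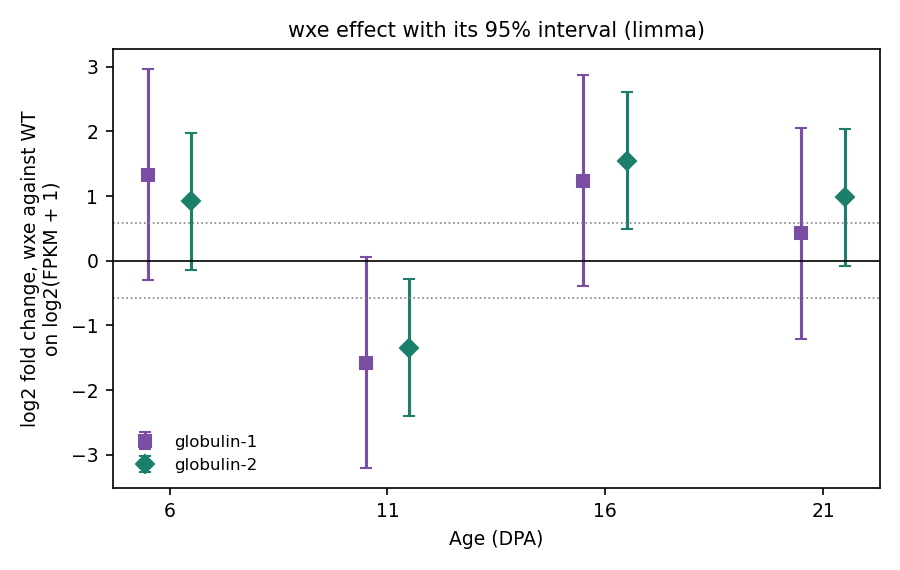
Log2 fold change of wxe against WT on the log2(FPKM + 1) scale at the 4 ages, for globulin-1 (squares) and globulin-2 (diamonds), with 95% intervals from limma. Dotted lines mark the fold threshold of 0.58 in either direction. Both genes lie above 0 at 6, 16 and 21 DPA and below 0 at 11 DPA.

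Averaged over the 4 ages, the wxe effect on log2(FPKM + 1) was 0.36 for globulin-1 and 0.52 for globulin-2, with a higher mean in wxe at 3 of 4 ages for each gene. Exact two-sided permutation of the genotype labels within ages (1296 arrangements, smallest possible p 0.00154) gave p = 0.515 for globulin-1 and p = 0.239 for globulin-2. These 2 tests are 1 family, and neither p is past 0.05 before adjustment.

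Whether the wxe effect differed between neighbouring ages was tested as an interaction, with a call at an adjusted p below 0.05. From 6 to 11 DPA the wxe effect on globulin-1 moved by -2.91 (SE 1.06, limma adjusted p = 0.0438) and that on globulin-2 by -2.27 (SE 0.69, adjusted p = 0.0200). Both genes were called, as were 41.6% of all genes tested in this comparison. The call of globulin-1 was lost without either WT library of 6 or 11 DPA, without wxe replicate 1 of 6 DPA or of 11 DPA, and without either wxe library of 21 DPA (values from -3.15 to -2.15, adjusted p between 0.0559 and 0.158 from limma). That of globulin-2 was lost without WT replicate 1 or wxe replicate 1 of 6 DPA and without WT replicate 2 or wxe replicate 1 of 11 DPA (-2.26 to -1.97, adjusted p between 0.0522 and 0.0683 from limma). Without the filter on low values neither gene was called (limma adjusted p = 0.144 and 0.0810), and globulin-1 was not called after quantile normalization (-2.75, 0.0563) or with array weights (0.0755).

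From 11 to 16 DPA the effect moved back up, by 2.90 for globulin-2 (SE 0.69, limma adjusted p = 0.0160), a call that 16.4% of all tested genes shared. The call was lost without WT replicate 2 or wxe replicate 1 of 11 DPA or wxe replicate 2 of 16 DPA (2.68 to 2.89, adjusted p between 0.0502 and 0.0585 from limma), and also without the filter on low values (adjusted p = 0.0791). For globulin-1 the move was 2.81 (SE 1.06, limma adjusted p = 0.0894), which passed without WT replicate 1 of 16 DPA (3.95, adjusted p = 0.0336). This comparison and the one before share the 11 DPA libraries. Between 16 and 21 DPA neither gene was called (-0.81 for globulin-1, adjusted p = 0.858, and -0.57 for globulin-2, adjusted p = 0.846, limma), beside 0.128% of all genes.

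Steps between neighbouring ages were tested within each genotype. In WT both genes rose from 6 to 11 DPA, globulin-1 by 2.72 on the log2 scale (SE 0.75, limma adjusted p = 0.00767) and globulin-2 by 4.13 (SE 0.49, adjusted p = 1.51e-05). Of all genes tested for this step, 19.6% were called higher. Globulin-1 passed the filter for this step only through its 11 DPA libraries, since its WT mean at 6 DPA was 0.253 FPKM. Without the filter its adjusted p was 0.0428 (limma). The ratio of mean FPKM at 11 to that at 6 DPA was 29.1 for globulin-1 and 29.0 for globulin-2. The call of globulin-1 was lost without WT replicate 1 of 11 DPA (2.47, adjusted p = 0.0503 from limma).

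In wxe from 6 to 11 DPA, globulin-2 rose by 1.86 (SE 0.49, limma adjusted p = 0.00487), a ratio of 4.32 in mean FPKM, beside 19.1% of all tested genes called higher. Globulin-1 had about the same mean at both ages, 2.60 and 2.08 FPKM, with overlapping libraries and a log2 change of -0.19 (95% interval from -1.82 to 1.44). This value lay above 0 without wxe replicate 1 of 6 DPA (0.57) or of 11 DPA (0.49) and after quantile normalization (0.052).

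The step from 11 to 16 DPA was large in wxe. Globulin-1 rose by 3.23 (SE 0.75, limma adjusted p = 0.00342) and globulin-2 by 3.69 (SE 0.49, adjusted p = 6.35e-05), with ratios of mean FPKM of 12.7 and 13.5. Only 0.140% and 0.0764% of the genes tested had as high a change, and 14.2% were called higher. In WT neither gene was called for this step, with log2 changes of 0.41 for globulin-1 and 0.79 for globulin-2 and overlapping libraries, beside 14.1% of all genes called higher. WT replicate 1 of 16 DPA had more of both transcripts than either library of 11 DPA, and WT replicate 2 had less. Without WT replicate 1 both values were below 0 (-0.72 and -0.042), and without WT replicate 2 globulin-2 was called higher (1.62, adjusted p = 0.0127 from limma).

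From 16 to 21 DPA globulin-1 rose in WT by 2.52 (SE 0.75, limma adjusted p = 0.0196), beside 11.3% of genes called higher. The call was lost without WT replicate 2 of 16 DPA (1.39, adjusted p = 0.198) and without WT replicate 2 of 21 DPA (1.67, adjusted p = 0.164, limma), as well as with the WT groups of these ages fitted alone (0.0574) and without the filter on low values (0.101). Globulin-2 in WT had a log2 change of 1.22 (adjusted p = 0.0677 from limma), which was called without WT replicate 1 of 16 DPA (2.05) or of 21 DPA (1.96). In wxe neither gene was called, with log2 changes of 1.71 for globulin-1 (adjusted p = 0.0962 from limma) and 0.65 for globulin-2 (adjusted p = 0.326), beside 10.4% of genes called higher. With the wxe groups of these ages fitted alone both were called (limma adjusted p = 0.00529 and 0.00794). The wxe libraries of the 2 ages did not overlap for either gene, and the share of all genes without overlap was not counted.

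The spread between replicates was itself unusual. The residual SD of globulin-1 on log2(FPKM + 1) was 0.917 over 8 degrees of freedom, and that of globulin-2 was 0.594, beside a median of 0.149 over the 18349 genes fitted. As large a residual SD was found in 0.180% of these genes for globulin-1 and in 0.752% for globulin-2.

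The 2 genes shared the direction of their replicate differences in most groups. Both lay outside the central 95% of fitted genes only in WT at 16 and 21 DPA. In 6 of 8 groups they were higher in the same replicate, and the exceptions were WT at 11 DPA and wxe at 21 DPA. Over the 8 replicate differences Pearson's r between the genes was 0.904 and Spearman's rho 0.929, and without the 2 groups farthest from the median of globulin-1 r was 0.751. These are descriptions of points that come from the same libraries for both genes. In WT at 16 DPA replicate 1 exceeded replicate 2 by 2.27 on the log2 scale for globulin-1 and by 1.67 for globulin-2, and at most 0.125% of fitted genes differed as much between these libraries. In WT at 21 DPA the differences were -1.69 and -1.49, with replicate 2 the higher one, and at most 0.322% of fitted genes differed as much. In wxe the differences of globulin-1 were 1.52 at 6 DPA, -1.36 at 11 DPA and -0.98 at 16 DPA, each as large in 0.213% to 0.583% of fitted genes, whereas those of globulin-2 in these groups were 0.59, -0.43 and -0.16 and lay within the central 95% of genes.

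**Figure D4:**
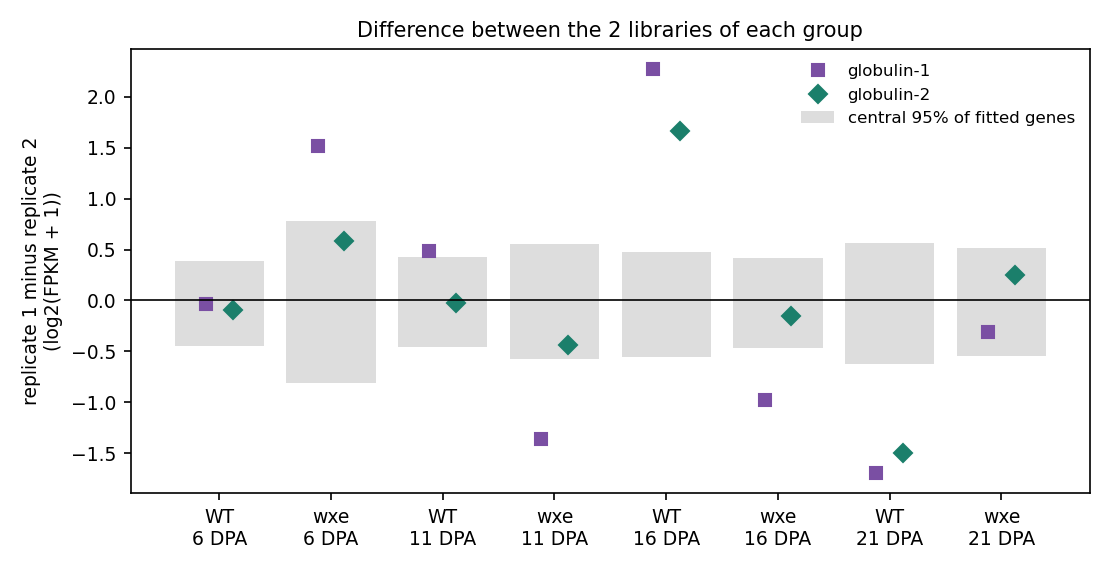
Difference between replicate 1 and replicate 2 on log2(FPKM + 1) in each of the 8 groups, for globulin-1 (squares) and globulin-2 (diamonds). Grey bars span the central 95% of the 18349 fitted genes. In WT both genes lie above the bar at 16 DPA (2.27 and 1.67) and below it at 21 DPA (-1.69 and -1.49), and at 6 DPA both lie inside it.

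Genes with a like pattern were ranked by Pearson's r on log2(FPKM + 1) among the other 18348 fitted genes, as a description. The table pairs no names with IDs, so they are given by ID alone. Over the 16 libraries, which share the rise with age of many genes, the 5 genes most like globulin-1 were Sobic.001G311200, Sobic.009G171400, Sobic.004G210101, Sobic.010G210400 and Sobic.007G004900 (r from 0.953 to 0.961). Those most like globulin-2 were Sobic.004G042100, Sobic.006G053400, Sobic.001G166401, Sobic.004G261100 and Sobic.006G132300 (r from 0.970 to 0.977). Globulin-2 took place 16 in the order of globulin-1, and globulin-1 place 202 in that of globulin-2. With a pseudocount of 0.1 in place of 1, only 1 of the 5 genes most like globulin-1 was kept, against 4 of 5 for globulin-2.

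Likeness was also measured over the 8 differences between replicates 1 and 2, which hold no difference between ages or genotypes. On this measure the 5 genes most like globulin-1 were Sobic.009G037100, Sobic.004G130100, Sobic.010G142900, Sobic.004G092700 and Sobic.003G270200 (r from 0.957 to 0.974), and those most like globulin-2 were Sobic.005G165700, Sobic.001G380800, Sobic.001G100700, Sobic.010G041900 and Sobic.009G215700 (r from 0.971 to 0.989). With a pseudocount of 0.1, 3 and 4 of the 5 were kept. Above an r of 0.9 there were 33 genes for globulin-1 and 58 for globulin-2, each list holding the other globulin, and 19 further genes were shared, which is 57.6% of the first list and 32.8% of the other. Below -0.9 there were 22 and 17 genes.

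The gene most like globulin-2 in its replicate differences, Sobic.005G165700, shows what such a gene looks like. In WT it had 185 and 78.1 FPKM at 16 DPA and 77.1 and 145 FPKM at 21 DPA, with the same libraries low as for both globulins. In wxe it had 328 and 377 FPKM at 16 DPA and 223 and 172 FPKM at 21 DPA. Unlike the globulins it was already high at 11 DPA, at 662 and 635 FPKM in WT and 279 and 347 FPKM in wxe. At 6 DPA these 5 genes did not follow globulin-2, since 1 of the 4 tested had a higher value in wxe (log2 fold changes from -1.08 to 0.39). At 11 DPA all 5 had a lower value in wxe and 3 were called, beside 17.9% of all genes. At 16 and 21 DPA all 5 had a higher value, with none called at 16 DPA and 1 called at 21 DPA, beside 0.987% and 6.51% of all genes. Of the 5 genes most like globulin-1, 3 were tested at 6 DPA and 1 of them had a higher value in wxe (-0.64 to 0.80). All 5 had lower values in wxe at 11 DPA, with 3 called, and higher values at 16 and 21 DPA, with none called by limma at either age. Both sets of 5 genes were picked for following the globulin replicate differences, the low WT libraries of 16 and 21 DPA included. Their directions in these same libraries are therefore not independent evidence. The shares of all genes given here count calls in either direction, and the share with a lower or higher value was not counted.

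The other storage protein and regulator genes compared here were those named by ID in the study or in earlier results of these data. They were picked on these same libraries, so their counts are not independent evidence of a direction. Of the 3 kafirin genes at 6 DPA, 2 were called lower and 1 higher in wxe, beside 19.6% of all genes called in either direction, with a median log2 fold change of -2.91 beside 0.0075 over all genes tested. Sobic.009G001600 had 3455 ± 553 FPKM in WT and 457 ± 56.4 FPKM in wxe, and Sobic.010G136100 had 91.3 ± 58.9 and 0.656 ± 0.485 FPKM, at an age when the globulin values lay higher in wxe. Sobic.005G186300, called higher, was scarce in both, at 0.187 ± 0.165 FPKM in WT and 1.16 ± 0.578 FPKM in wxe (SD, n = 2 for each value), and it passed the filter only through the wxe group, so its call is no support for a direction. The same holds for the call of Sobic.010G136100 at 6 DPA, which passed the filter only through the WT group. Kafirin genes are close copies, and reads may have been split or shared between them. At 11 and 16 DPA limma called none of these kafirin genes (lowest adjusted p = 0.153, for Sobic.010G136100 at 16 DPA), and at 21 DPA Sobic.010G136100 was called lower in wxe (4847 ± 319.7 against 712 ± 44.3 FPKM).

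The bZIP genes of the list belong to a family that holds regulators of cereal storage protein genes. Both were called lower in wxe at 6 DPA, beside 19.6% of all genes called in either direction. Sobic.002G054800 had 27.2 ± 0.665 FPKM in WT and 9.99 ± 1.80 FPKM in wxe at that age. Neither was called later. Sobic.002G055000 missed only the fold threshold at 11 DPA (log2 fold change -0.547, limma adjusted p = 0.00359) and at 21 DPA (-0.545, limma adjusted p = 0.0111). All 4 NAC genes, of a family of plant transcription factors, were called lower at 6 DPA and 2 of 4 at 11 DPA, beside 19.6% and 17.9% of all genes called in either direction, and their median log2 fold change was -1.24 at the first of these ages and -0.50 at the next. The median of the NAC genes was 0.27 at both later ages, with none called by limma. At 21 DPA Sobic.009G086800 (0.449, limma adjusted p = 0.0194) and Sobic.002G192600 (0.394, limma adjusted p = 0.0239) missed only the fold threshold. At that age Sobic.003G105600 had -0.222 and Sobic.005G056300 had 0.139. The B3 gene Sobic.007G083900, of a family that includes seed maturation regulators, had 14.6 ± 0.802 FPKM in WT and 9.99 ± 0.0522 FPKM in wxe at 6 DPA. It was called neither at that age (limma adjusted p = 0.0639) nor at 11 DPA (log2 fold change 0.23, limma adjusted p = 0.391). It was called higher in wxe at 16 DPA (4.57 ± 0.341 against 11.8 ± 0.102 FPKM, log2 fold change 1.21, adjusted p = 0.0141 from limma) and at 21 DPA (2.80 ± 1.33 against 6.25 ± 1.24 FPKM, log2 fold change 0.97, adjusted p = 0.00942; SD, n = 2 throughout). Of all genes tested, 0.987% were called in either direction at 16 DPA and 6.51% at 21 DPA.

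In their replicate differences these genes differed from one another. The NAC gene Sobic.002G192600 followed both globulins, with r = 0.911 for globulin-1 and r = 0.946 for globulin-2 over the 8 groups, although its own replicates differed by at most 0.22 on the log2 scale. The other NAC genes had lower r, from 0.383 to 0.420 for globulin-1 and from 0.170 to 0.346 for globulin-2. For the bZIP genes r was 0.10 and 0.029 (Sobic.002G055000) and 0.142 and 0.085 (Sobic.002G054800). For the B3 gene r was 0.691 and 0.750. The kafirin genes went different ways, with r of -0.560 and -0.443 for Sobic.009G001600, -0.096 and 0.024 for Sobic.010G136100, and 0.57 and 0.62 for Sobic.005G186300. For GBSSI r was 0.153 and -0.035. These values describe 8 points each, taken from the same libraries.

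The genes next to the globulins in ID order did not share their levels. The 6 neighbours of globulin-2, the 3 IDs on either side, stayed at or below 1.91 FPKM in every library. Those of globulin-1 stayed at or below 13.0 FPKM, and 2 of the 6 never exceeded 2 FPKM. Of the 12 neighbours 5 could be tested at 6 DPA, and at each later age 3 of those of globulin-1 and none of those of globulin-2 had enough FPKM. In the comparison of wxe with WT 1 of the 5 was called at 6 DPA, beside 19.6% of all genes, and none of the 3 later. The called gene was Sobic.001G144700, with 1.79 ± 0.123 FPKM in WT and 3.66 ± 1.77 FPKM in wxe at 6 DPA (SD, n = 2, log2 fold change 0.69, adjusted p = 0.0272 from limma). It lies 2 IDs before globulin-1 and was at or below 0.382 FPKM in every later library.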

How the data were processed

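Endosperm RNA was sequenced from 16 libraries, 2 replicates of WT and of wxe at each of 4 ages. Per the labels and the study's methods, the authors used FastQC and Trimmomatic, aligned reads with STAR to the sorghum version 3 genome and deposited FPKM per gene from Cufflinks. Tool versions, strand and the handling of reads that map to several genes are not given in the sources used here. The deposited FPKM were used without rescaling. FPKM hold no counts, so depth is unknown and a transcript's value depends on all others in its library.

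Tests were run on log2(FPKM + 1) with limma 3.58.1 in R 4.3.3, with a variance trend and Benjamini-Hochberg adjustment over genes with a mean above 1 FPKM in a compared group. Code was tested on simulated data. The average effect was tested by exact permutation within ages. Alternatives were a pseudocount of 0.1, no filter, a filter at 5 FPKM, median-ratio and quantile scaling, no trend, array weights, a replicate block, fits of the compared groups alone and leaving out each library.

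The members and lists were chosen with earlier results of these data known. Named were the 2 globulin genes, the 5 genes most like each by either measure, the 3 IDs on each side, up to 3 genes of a list by mean FPKM, and GBSSI. Of the gene IDs 0 matched the reference table, so lists by product name were not run.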

Additional observations from a re-analysis of the deposited data

Results flagged for a closer look

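From 6 to 11 DPA the log2 effect of wxe on globulin-1 moved by -2.91 (SE 1.06, limma adjusted p = 0.0438), with wxe above WT in both libraries at 6 DPA and below WT in both at 11 DPA. For globulin-2 the same difference was -2.27 (SE 0.69, limma adjusted p = 0.0200). Between 11 and 16 DPA the wxe effect on globulin-2 differed by 2.90 (SE 0.69, limma adjusted p = 0.0160). These results stand here because the effect of genotype differed between ages by a test of the difference itself. Such calls were common, with 41.6% of all genes tested called between 6 and 11 DPA and 16.4% between 11 and 16 DPA. The comparisons share the 11 DPA libraries, and each call is lost without some single libraries. Without the filter on low values all 3 calls are lost (limma adjusted p = 0.144, 0.0810 and 0.0791), and that of globulin-1 is also lost after quantile normalization (0.0563) and with array weights (0.0755).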

How the results depend on the processing

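Apart from leaving out libraries, 9 alternatives gave 237 comparisons with the 28 tested results, of which 223 kept direction and side of the threshold. Without a filter 4 calls were lost (adjusted p from limma): globulin-1 in WT from 16 to 21 DPA (2.52, 0.101), the change of its wxe effect from 6 to 11 DPA (-2.91, 0.144), that of globulin-2 (-2.27, 0.0810) and the change for globulin-2 from 11 to 16 DPA (2.90, 0.0791). The filter at 5 FPKM gave a call for globulin-2 at 11 DPA (-1.35, 0.0449) and left both genes untested at 6 DPA and globulin-1 untested in wxe from 6 to 11 DPA. Fits of the compared groups alone gave calls at 11 DPA for globulin-1 (-1.57, 0.0177) and globulin-2 (-1.35, 8.15e-04) and in wxe from 16 to 21 DPA for both (1.71, 0.00529, and 0.65, 0.00794), and lost globulin-1 in WT from 16 to 21 DPA (2.52, 0.0574). Quantile normalization turned globulin-1 in wxe from 6 to 11 DPA to 0.052 and gave -2.75 (0.0563) for the change of its wxe effect from 6 to 11 DPA. Array weights lost that call (-2.91, 0.0755) and gave one for globulin-2 at 16 DPA (1.55, 0.0444). The cause of these changes was not tested.

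Replicate numbers were shared by the groups, but the replicate differences of WT and wxe correlated at -0.278, 0.214, -0.0135 and 0.112 over 18349 genes at the 4 ages, so they were not taken as pairs. The replicate block changed no call (for the change from 6 to 11 DPA, -2.91 with adjusted p = 0.0496 for globulin-1 and -2.27 with 0.0230 for globulin-2, limma).

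Leaving out 1 library at a time, the log2 values of globulin-1 for wxe against WT ran from 1.31 to 2.09 at 6 DPA (15 of 16 fits), -2.25 to -0.90 at 11 DPA, 0.10 to 2.37 at 16 DPA and -0.42 to 1.27 at 21 DPA. Those of globulin-2 ran from 0.62 to 1.21, -1.57 to -1.13, 0.72 to 2.38 and 0.23 to 1.73. For the change of the wxe effect the ranges were -3.67 to -2.15, 1.68 to 3.95 and -1.95 to 0.32 for globulin-1, and -2.56 to -1.97, 2.06 to 3.73 and -1.40 to 0.26 for globulin-2, in order of age. For the steps of age in WT they were 2.47 to 2.96, -0.72 to 1.55 and 1.39 to 3.66 for globulin-1, and 4.08 to 4.18, -0.042 to 1.62 and 0.38 to 2.05 for globulin-2. In wxe they were -0.95 to 0.57, 2.55 to 3.90 and 1.22 to 2.20 for globulin-1, and 1.57 to 2.16, 3.47 to 3.91 and 0.52 to 0.77 for globulin-2. The average effect over the ages ran from 0.072 to 0.64 and from 0.32 to 0.73. The change of sign for globulin-1 in wxe from 6 to 11 DPA came without wxe replicate 1 of 6 DPA (0.57) or of 11 DPA (0.49), and that of both genes for the last change of effect without WT replicate 2 of 16 or of 21 DPA. With 2 libraries a group, effects of the size seen at 6 and 21 DPA have intervals that include 0, and depth is unknown.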
